A study of Mus musculus with 36 samples.

Results

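The genes described here are 35 type I interferon response genes, meaning genes whose transcripts are induced when a cell senses type I interferon, read in mouse lung after titanium dioxide nanoparticles were placed in the airways. They were chosen by name with earlier results of these data known, so shares set against all genes only describe the set. Array probes were assigned to them through the RefSeq accession that the scanner files give for each probe. Of the 35 genes, 33 were matched to a probe and all 33 passed the filter on dim probes, out of 23264 genes tested. Mx1 and Mx2 were not matched in this way and were not analysed here. Where a gene had several probes (13 genes), the probe with the highest mean signal stood for it.

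Female C57BL/6 mice aged 5 to 7 weeks received a single intratracheal instillation of 0 (control), 18, 54 or 162 µg of Tube TiO2NPs in 40 µl. Lungs were taken at day 1 (24 h) or day 28. The mice carried no named transgene or mutation, and the labels do not say what the control suspension held. The day 1 groups were 4 controls, 3 mice given 18 µg, 3 given 54 µg and 4 given 162 µg. The day 28 groups were 3 controls and 4 mice for each of the other doses. The labels speak of 5 lung sections per group for the RNA, and 29 mice on 36 arrays were analysed here. Each array was hybridised with 200 ng of lung RNA in Cy5 and a reference RNA pooled from 11 mouse cell lines in Cy3. All levels below are log2(Cy5/Cy3), so a level of 0 means equal signal from lung and reference, and a level cannot be set against that of another gene. A difference between groups is a log2 change, and 1 unit is a factor of 2. In whole lung RNA, more cells that express a gene and more transcript per cell cannot be told apart.

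Type I interferons are secreted by cells that detect foreign or misplaced nucleic acid. They bind a receptor on neighbouring cells, whose kinases activate transcription factors. These bind, among other sites, a DNA motif called the interferon-stimulated response element (ISRE). The induced genes include RNA-binding Ifit proteins, the ubiquitin-like protein Isg15 and its enzymes, sensors of nucleic acid, and factors that block viral entry, replication and budding. In the lung, epithelial cells and macrophages are known to induce them during viral infection.

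Promoters are shown first, because the ISRE is known from many interferon response genes. The letters GAAA, any 2 bases, then GAAA were searched on both strands of the 300 bases around each RefSeq gene start (250 before, 50 after, GRCm38.p6). An entry existed for 25 of the 35 genes. At least 1 window held the letters in 10 of these 25 genes (40%), against 3.99% of all 27025 genes in the table. By windows it was 11 of 32, against 3.44% of all 32851. The letters TTC, any 3 bases, then GAA (called GAS) were searched in the same windows. They were in 7 of the 25 genes (28%), against 9.55% of all genes, and are not marked below. A match is a description of letters and not a measured binding site. The 250 bases before the start are printed for Rsad2 and Ifit1, which had the largest changes at day 1 among genes that passed the test and had an entry, and for Isg15, Ifit3 and Lgals3bp, which were picked after their values were seen. Capitals mark the ISRE letters, and each line reads 5′ to 3′ on the strand of the gene.
Rsad2: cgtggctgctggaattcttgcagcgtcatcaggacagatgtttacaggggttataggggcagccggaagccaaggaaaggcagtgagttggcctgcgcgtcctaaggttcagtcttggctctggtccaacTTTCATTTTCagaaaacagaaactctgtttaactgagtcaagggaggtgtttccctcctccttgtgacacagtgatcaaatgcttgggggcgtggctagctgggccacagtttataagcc
Ifit1: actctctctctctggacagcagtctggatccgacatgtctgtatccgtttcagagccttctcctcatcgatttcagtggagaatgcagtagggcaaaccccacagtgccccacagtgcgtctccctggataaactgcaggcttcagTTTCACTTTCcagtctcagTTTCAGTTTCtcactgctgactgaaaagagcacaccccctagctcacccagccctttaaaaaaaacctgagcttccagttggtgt
Isg15: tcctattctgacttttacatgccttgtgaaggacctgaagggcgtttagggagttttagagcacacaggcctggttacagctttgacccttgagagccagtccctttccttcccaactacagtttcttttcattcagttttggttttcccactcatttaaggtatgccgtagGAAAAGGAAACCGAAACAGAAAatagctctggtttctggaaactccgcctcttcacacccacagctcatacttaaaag
Ifit3: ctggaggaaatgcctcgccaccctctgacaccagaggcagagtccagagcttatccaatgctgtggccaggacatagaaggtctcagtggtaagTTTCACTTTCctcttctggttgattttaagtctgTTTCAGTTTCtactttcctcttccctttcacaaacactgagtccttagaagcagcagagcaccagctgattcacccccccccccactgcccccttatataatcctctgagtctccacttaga
Lgals3bp: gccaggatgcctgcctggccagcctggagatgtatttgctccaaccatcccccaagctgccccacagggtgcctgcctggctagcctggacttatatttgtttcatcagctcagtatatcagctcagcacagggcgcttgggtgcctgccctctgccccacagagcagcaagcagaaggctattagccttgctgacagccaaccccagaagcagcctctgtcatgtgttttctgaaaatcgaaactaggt
The window of Rsad2 (chr12:26456453-26456702, minus strand) held 1 match, 120 bases before the start. That of Ifit1 (chr19:34640639-34640888, plus strand) held 2, at 104 and 85 bases before it. In Isg15 (chr4:156200819-156201068, minus strand) 3 matches overlapped in 1 run that began 78 bases before the start. Ifit3 (chr19:34583279-34583528, plus strand) held 2, at 156 and 122 bases. Lgals3bp (chr11:118401960-118402209, minus strand) held 0 and had the smallest adjusted p of all 33 genes at day 28. In Eif2ak2 the only match lay after the start, at base 19, and is shown as a site of 30 bases (chr17:78882535-78882564, minus strand).
Eif2ak2: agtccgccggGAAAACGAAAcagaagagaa
Of the 18 genes called at day 28 (below), Zbp1, Usp18, Ifi27l2a, Dhx58, Parp9, Parp14, Rtp4 and Ifi204 had no entry in the promoter table.

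Some arrays and 1 mouse stood apart and bear on what follows. Lung markers were well above background on every array for 12 of 12 genes, from Sftpc of alveolar type II cells to Scgb1a1 of club cells. On 12 of the 36 arrays the mean log2 Cy5 signal over 13 skeletal muscle genes was 10.592 to 15.207, against 6.905 to 7.688 on the other 24. The term muscle array is used for them. Among day 1 mice, all 4 controls had at least 1 such array, as had replicate 3 of the 18 µg group, replicate 2 of the 54 µg group and replicate 3 of the 162 µg group. Among day 28 mice they occurred in replicate 1 of the 18 µg group and replicates 1, 2 and 3 of the 54 µg group, and in none of the controls or 162 µg mice. The part of muscle tissue in the interferon gene results was not tested at the level of cells. The labels of 1 mouse conflict: its titles say day 1 and its time label says day 28. It was kept at day 28, as replicate 1 of the 162 µg group. Its animal number runs in sequence with those of the other 162 µg mice of day 28, and not with those of day 1. Its 2 arrays disagreed on the interferon genes. Without its second array 2 of the 18 genes called at day 28 were left, as given with the day 28 results. Between 48.6% and 62.1% of the probes on an array gave Cy5 signal well above background. No spot was saturated.

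**Figure D1:**
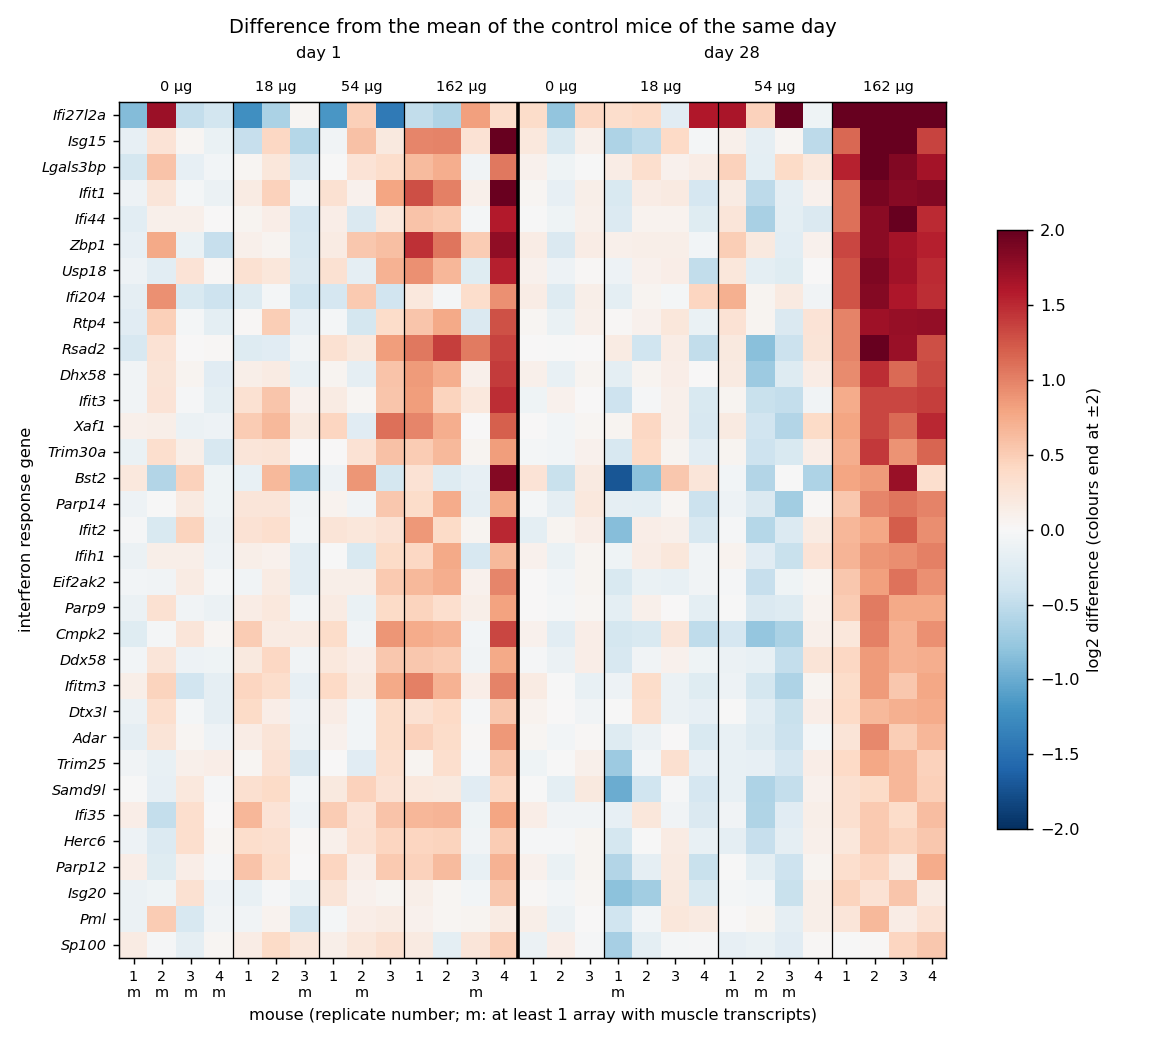
Heat map of the 33 genes (rows, ordered by their change at 162 µg and day 28) in each of the 29 mice (columns, by day and dose), as the log2 difference from the mean of the control mice of the same day. Red is higher and blue lower. At 162 µg and day 28 all 4 mice lie above every control mouse in 32 of the 33 genes. There, replicate 1 is the mean of 2 arrays, and its first array had 16 genes at or below the highest control mouse. At day 1 replicate 3 of the 162 µg group, which had a muscle array, is the lowest of its group in 28.

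Whether the highest dose had moved these genes within 24 h is read from the 162 µg and control mice of day 1. Of the 33 genes, 4 rose and 0 fell, against 349 risen genes among all 23264 tested (1.5%). These 4 were Rsad2, Zbp1, Ifit1 and Eif2ak2. All 33 log2 changes were above 0, with a median of 0.51 (0.020 to 1.26), and the median over all genes tested was 0.0062. At an unadjusted p under 0.05, 23 of the 33 were higher and 0 lower, against 8.76% higher among all genes. The groups did not overlap for 2 genes, Rsad2 and Isg15, against 4.22% of all genes.

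Rsad2 encodes viperin, an enzyme that makes a chain-terminating nucleotide from CTP. At day 1 its level was -0.35, 0.26, -0.018 and 0.0030 in the control mice (mean -0.026 ± 0.25 SD, n = 4) and 1.02, 1.36, 1.01 and 1.32 at 162 µg (mean 1.18 ± 0.19, n = 4). Every treated mouse, the one with a muscle array included, was above every control mouse. The change was 1.20 (SE 0.23, 2.30-fold, limma adjusted p = 0.00401). At 54 µg the level was 0.27, 0.18 and 0.81, and at 18 µg -0.28, -0.25 and -0.10. Its change of 0.44 at 54 µg did not pass the test (adjusted p = 0.708). The 18 µg mice lay inside the range of the controls.

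Zbp1 encodes a sensor of Z-form nucleic acid that can start cell death. Its level was -0.58, 0.33, -0.54 and -0.89 in the control mice (mean -0.42 ± 0.52, n = 4). At 162 µg it was 1.03, 0.66, 0.092 and 1.35 (mean 0.78 ± 0.54, n = 4). Control replicate 2 lay above treated replicate 3, so the groups overlapped. The change was 1.20 (SE 0.23, 2.30-fold, limma adjusted p = 0.00440). The 54 µg mice were at -0.26, 0.12 and 0.19 and the 18 µg mice at -0.31, -0.36 and -0.73, inside the range of the controls.

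Ifit1 encodes a protein that binds viral RNA lacking cap methylation. Its level was -0.66, -0.31, -0.59 and -0.67 in the control mice (mean -0.56 ± 0.17, n = 4) and 0.73, 0.45, -0.45 and 1.42 at 162 µg (mean 0.54 ± 0.78, n = 4). Treated replicate 3, the one with a muscle array, lay within the control range, and the other 3 lay above it. The change was 1.10 (SE 0.27, limma adjusted p = 0.0302). At 54 µg the level was -0.26, -0.48 and 0.24, and at 18 µg -0.39, -0.091 and -0.62.

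Eif2ak2 encodes PKR, the kinase that stops translation on double-stranded RNA. Its level was -0.36, -0.38, -0.16 and -0.36 in the control mice (mean -0.32 ± 0.10, n = 4). At 162 µg it was 0.33, 0.40, -0.23 and 0.66 (mean 0.29 ± 0.37, n = 4), again with replicate 3 inside the control range. The change was 0.61 (SE 0.15, limma adjusted p = 0.0342), a 1.52-fold rise. At 54 µg the level was -0.20, -0.20 and 0.21, and at 18 µg -0.39, -0.16 and -0.52.

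**Figure D2:**
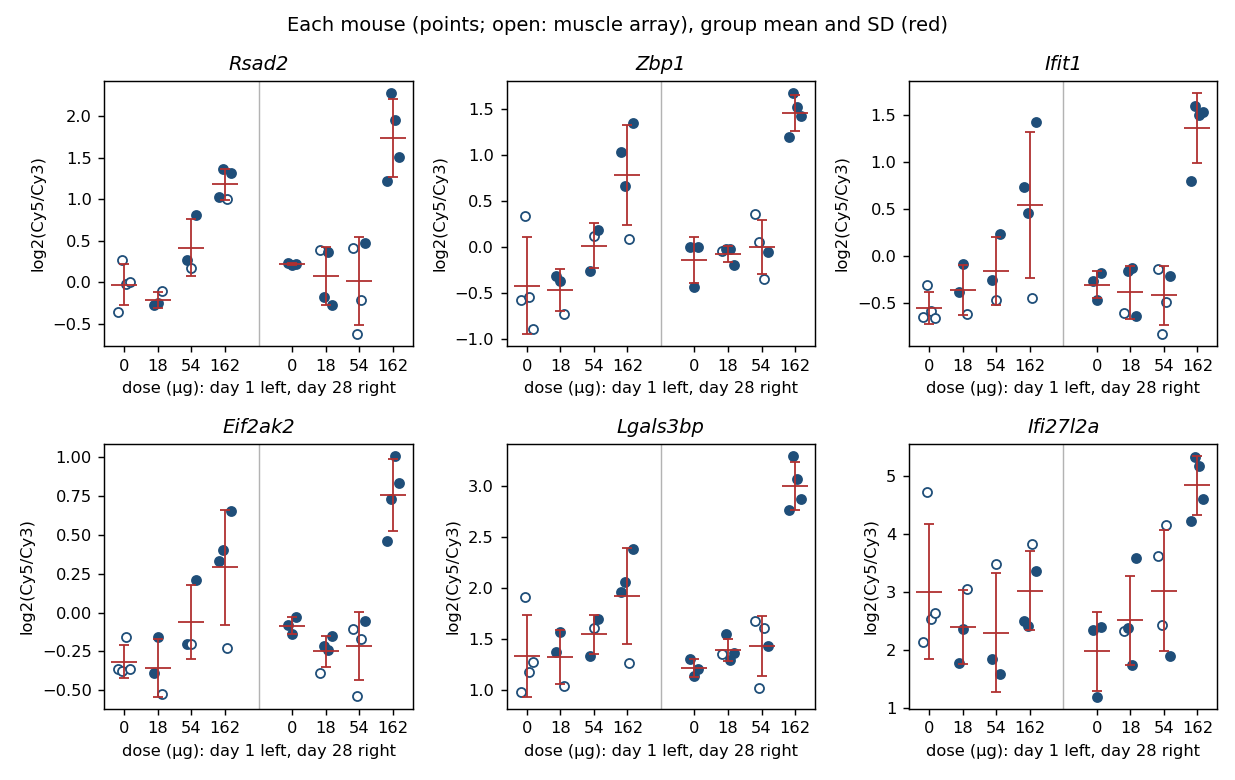
Level of 6 interferon response genes as log2(Cy5/Cy3) on the y axis, by dose on the x axis, with day 1 on the left and day 28 on the right of each panel. Points are mice (open where the mouse had a muscle array) and red bars are the group mean and SD. At 162 µg and day 28 the 4 mice of Rsad2, Zbp1, Ifit1, Eif2ak2, Lgals3bp and Ifi27l2a lie above the 3 control mice. Replicate 1 of that group is drawn at the mean of its arrays. Its first array lay below the highest control mouse for Rsad2 and Ifit1.

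Isg15 had the largest change of the 33 genes at day 1 and did not pass. It encodes a ubiquitin-like protein that is joined to other proteins and is also secreted. Its level was -1.15, -0.71, -0.94 and -1.12 in the control mice and -0.0088, 0.015, -0.69 and 1.81 at 162 µg. The groups did not overlap, though the lowest treated mouse was close to the highest control, and treated replicate 4 was far above the other 3. The change was 1.26 with a 95% interval of 0.46 to 2.06 (limma adjusted p = 0.112).

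The genes with the smallest changes at day 1 were Ifi27l2a, Pml and Samd9l. Ifi27l2a, which encodes a small hydrophobic membrane protein, was at 2.13, 4.72, 2.53 and 2.63 in the control mice and 2.50, 2.41, 3.83 and 3.36 at 162 µg. Control replicate 2 was the highest of the 8 mice, and the change was 0.020 with an interval of -1.15 to 1.19. Pml, which builds nuclear bodies, was at -0.68, -0.052, -0.88 and -0.63 against -0.47, -0.53, -0.51 and -0.39 at 162 µg (change 0.086, interval -0.22 to 0.40). Samd9l, an antiviral factor that represses translation, was at 0.77, 0.62, 1.00 and 0.76 against 0.99, 0.98, 0.57 and 1.20 (change 0.15, interval -0.22 to 0.51). All 3 intervals include 0, and that of Ifi27l2a also includes changes of more than 1 unit in either direction.

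By role, the 4 genes that rose at day 1 each fell in a different role. Of the RNA-binding Ifit proteins 1 of 3 rose, of the nucleic acid sensors 1 of 5, of the antiviral enzymes and membrane restriction factors 1 of 6, and of the kinase and the editing enzyme for double-stranded RNA 1 of 2. Of Isg15 and its enzymes 0 of 4 passed, of the ADP-ribosyl transferases and their partner Dtx3l 0 of 4, and of the nuclear body proteins Sp100 and Pml 0 of 2. Of the remaining induced genes 0 of 7 passed. Other genes near the threshold were Dhx58, a regulator of RNA sensing (0.77, limma adjusted p = 0.0748), Ifit3 (0.74, 0.0771) and Ifitm3, which blocks viral fusion (0.71, 0.0883).

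The count at day 1 moved with single mice and with the muscle arrays. The number of all genes called, up or down, moved between alternatives too. It was 394 of 23264 in the main fit, 290 with scanner processed signals and 166 with median centring in place of loess. A count of these genes is therefore not by itself a result about the set. Leaving out replicate 3 of the 162 µg group, which had a muscle array, 21 of the 33 genes rose. Without control replicate 1, control replicate 4, or 162 µg replicate 1, 2 or 4, the count was 2 each time. It was also 2 when the second array of the day 28 mouse of conflicting labels was left out, which enters only through the shared spread. Replicate 3 was the lowest of its group for 28 of the 33 genes. Its median level over them was 0.46, against 0.87, 0.96 and 1.35 in the other 3 mice and 0.33 to 0.58 in the controls. With the muscle score as a covariate 3 genes rose. When muscle arrays were left out the fit held 1 control mouse, too few to read a count. With the day 28 control mice, none on a muscle array, in place of the day 1 controls, 1 gene rose and the median was 0.28. With those controls and no muscle arrays 7 rose (median 0.45), an alternative added after the data were seen. Rsad2 kept its call in 33 of 33 alternatives, Zbp1 in 31, Ifit1 in 19 and Eif2ak2 in 18.

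**Figure D3:**
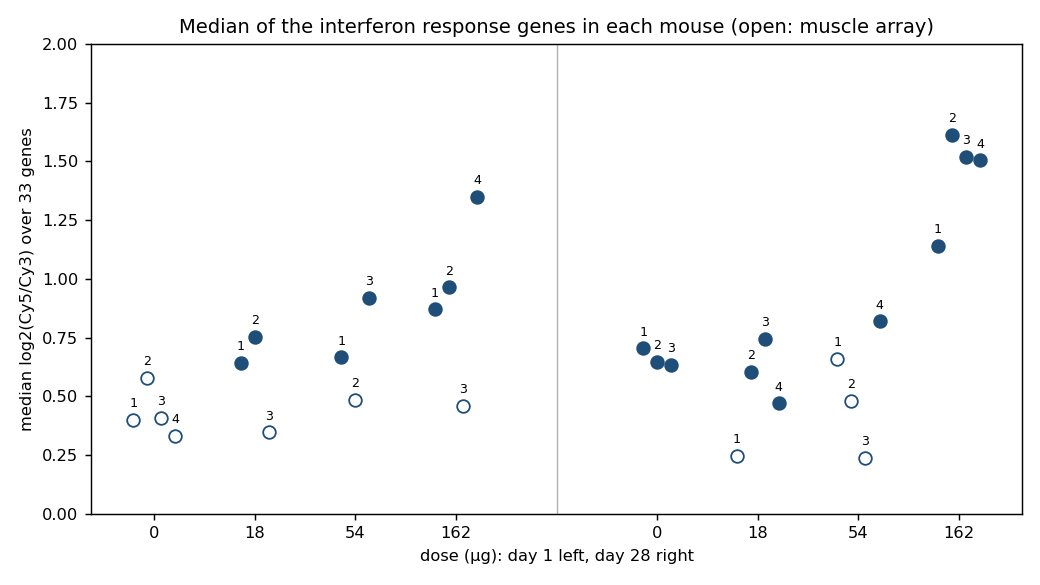
Median log2(Cy5/Cy3) over the 33 interferon response genes in each mouse (y axis) by dose (x axis), day 1 on the left and day 28 on the right, with replicate numbers and open points for mice with a muscle array. Mice with a muscle array lie at 0.24 to 0.66, and the 4 mice at 162 µg and day 28 at 1.14 to 1.61.

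In the 1 control mouse with an array of each kind (day 1 replicate 1), 24 of the 33 genes were lower on the muscle array, with a median difference of -0.29. The skeletal muscle list itself had a median change of -2.67 at 162 µg and day 1, and 0 of its 12 genes tested passed. Heart muscle genes (8 of 8 lower, median -1.47) and squamous epithelium genes (8 of 8 lower, median -0.82) were lower too, with 0 passing in either list. At day 28 heart muscle genes were lower in 8 of 8 (median -0.53, 0 passing) and squamous epithelium genes in 5 of 8 (median -0.085, 0 passing). The part of these tissues in the result was not tested. Within slides that held both groups, the median change of the 33 genes was 0.59, 0.36, -0.018, 1.11 and 0.76 on slides 1 to 5. On slide 1 neither group had a muscle array, and slide 5 held the second arrays of the same treated and control mouse. Slides 2, 4 and 5 set a treated array without muscle against a muscle array of a control mouse, and on slide 3 both were muscle arrays. With slide as a fixed block and mouse as a random block on all arrays, 9 genes rose and the 4 named above were among them.

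At the lower doses of day 1 no gene of the set passed. For 54 µg the comparison with control gave 0 of 33, with 0.0516% of all genes called higher. Of the 33 changes 30 were above 0, with a median of 0.24 (-0.70 for Ifi27l2a to 0.45 for Ifi35), and only Ifi35 had an unadjusted p under 0.05. For 18 µg it gave 0 of 33, with 0% of all genes called, 21 changes above 0, a median of 0.11 and 0 of the 33 at an unadjusted p under 0.05. Both comparisons use the same control mice as the 162 µg comparison, each of which had a muscle array. With the day 28 controls in their place the medians were -0.019 at 54 µg and -0.13 at 18 µg, and with the muscle score as a covariate 0.079 and -0.023. Without muscle arrays, with 1 control mouse left, they were 0.23 and 0.17, so the direction depends on the setting. The order of the group means rose with each step of dose in 16 of the 33 genes, against 7.66% of all genes, and 162 µg had the highest mean in 30, against 28.2% of all.

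Against the other treated groups, which do not include the day 1 controls, 162 µg was higher than 18 µg in 3 of 33 genes, with 1.68% of all genes called higher. Rsad2 was higher by 1.39 (SE 0.25, limma adjusted p = 0.00223), Zbp1 by 1.25 (SE 0.25, limma adjusted p = 0.00602) and Eif2ak2 by 0.65 (SE 0.16, limma adjusted p = 0.0334). The groups did not overlap in 3 genes (Rsad2, Zbp1 and Ifi204), against 7.74% of all genes. The count was 1 without 18 µg replicate 3 and 8 without 162 µg replicate 3, each the only mouse of its group with a muscle array. Against 54 µg, 0 of 33 genes passed, with 0.0043% of all genes called higher, and the median change was 0.29. At an unadjusted p under 0.05, 9 of the 33 were higher than at 54 µg and 0 lower.

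The 162 µg and control mice of day 28 show whether the genes were raised 28 days after the single dose. Of the 33 genes, 18 rose and 0 fell, while 144 of all 23264 genes rose (0.619%). Their folds ran from 1.70 for Parp9 to 7.26 for Ifi27l2a. All 33 changes were above 0, with a median of 0.89 (0.24 to 2.86) and a median over all genes of 0.0006. In 32 genes every treated mouse was above every control mouse, against 5.95% of all genes, and the exception was Sp100. In this count replicate 1 of the 162 µg group is the mean of its 2 arrays. On its first array 16 of the 33 genes were at or below the highest control mouse. At an unadjusted p under 0.05, 29 of the 33 were higher, against 3.44% higher among all genes. The 4 genes called at day 1 were all called at day 28, and 14 were called at day 28 only, which does not by itself show a difference between the days.

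**Figure D4:**
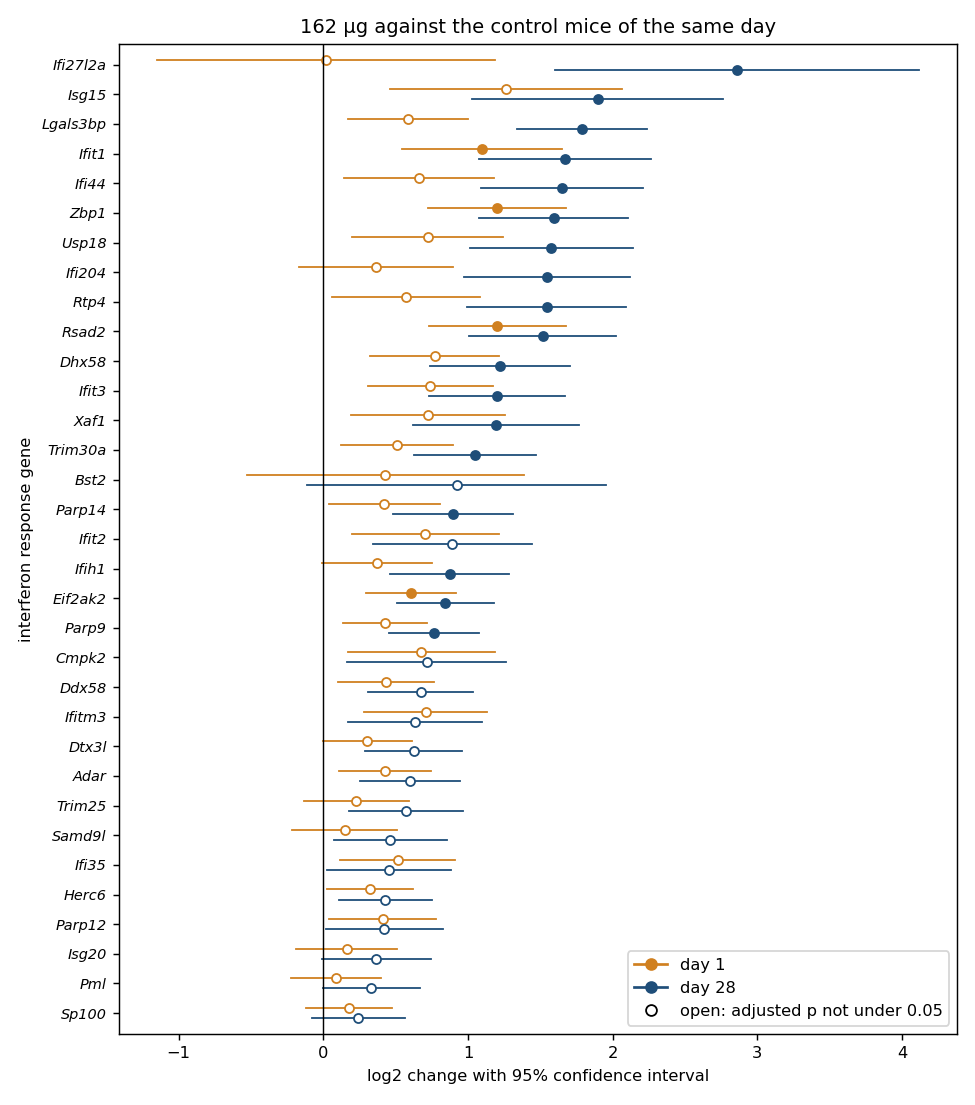
Log2 change at 162 µg against the control mice of the same day (x axis) with its 95% confidence interval for each of the 33 genes (y axis), day 1 in orange and day 28 in blue, filled where the adjusted p was under 0.05. At day 28, 18 points are filled and at day 1, 4.

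Among the RNA-binding Ifit proteins 2 of 3 rose at day 28. Ifit1 was at -0.27, -0.47 and -0.19 in the control mice (mean -0.31 ± 0.14, n = 3) and 0.80, 1.60, 1.51 and 1.54 at 162 µg (mean 1.36 ± 0.38, n = 4), a rise of 1.67 (SE 0.29, limma adjusted p = 0.00297). Replicate 1, the mean of 2 arrays at -0.34 and 1.94, was the lowest of the 4 and above all controls. Its first array lay within the control range. Ifit3, which stabilises Ifit1 on RNA, went from 2.01, 2.18 and 2.10 to 2.84, 3.43, 3.44 and 3.48, a rise of 1.20 (SE 0.23, limma adjusted p = 0.00697). Ifit2, a related RNA-binding protein, did not pass (0.89, adjusted p = 0.224), although its groups did not overlap.

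Of Isg15 and its enzymes 2 of 4 rose. Isg15 went from -0.47, -0.98 and -0.58 (mean -0.67 ± 0.27, n = 3) to 0.47, 1.82, 1.92 and 0.68 (mean 1.22 ± 0.75, n = 4), a rise of 1.90 (SE 0.42, limma adjusted p = 0.0301). Replicates 1 and 4 lay lower than replicates 2 and 3, and all 4 were above the controls. Replicate 1 is the mean of 2 arrays at -1.21 and 2.15, and the first of these lay below every control mouse. Usp18, the protease that removes Isg15 from proteins and dampens the receptor, went from -0.39, -0.58 and -0.45 to 0.79, 1.40, 1.21 and 1.01, a rise of 1.58 (SE 0.27, limma adjusted p = 0.00303). Herc6, a ligase for Isg15 in mice, and Trim25, a ligase that acts on the sensor encoded by Ddx58, did not pass (0.43 and 0.57, adjusted p = 0.555 and 0.405).

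Of the nucleic acid sensors 4 of 5 rose. Zbp1 was at 0.0051, -0.43 and 0.0057 in the control mice (mean -0.14 ± 0.25, n = 3) and 1.20, 1.67, 1.52 and 1.42 at 162 µg (mean 1.45 ± 0.20, n = 4), a rise of 1.59 (SE 0.25, limma adjusted p = 0.00158). It kept its call in 30 of 30 alternatives, but its second probe did not pass, as given with the probes. Ifi204, a DNA-binding protein of the family that includes human IFI16, went from -1.97, -2.37 and -2.00 to -0.85, -0.28, -0.50 and -0.64, a rise of 1.55 (SE 0.28, limma adjusted p = 0.00420). Dhx58 went from 0.68, 0.44 and 0.63 to 1.54, 2.06, 1.73 and 1.91, a rise of 1.22 (SE 0.23, limma adjusted p = 0.00830). Both sets of treated mice lay clear of their controls. Ifih1, the long double-stranded RNA sensor MDA5, went from 1.88, 1.67 and 1.85 to 2.47, 2.68, 2.73 and 2.80, a rise of 0.87 (SE 0.20, limma adjusted p = 0.0370). Its call was kept in 13 of 30 alternatives, the fewest of the 18. Next were Parp14 and Xaf1 with 16 each, Isg15 with 19, Parp9 with 22 and Ifi27l2a with 23, and the remaining genes kept theirs in 24 or more. Ddx58, the sensor RIG-I, had a change of 0.67 that did not pass (adjusted p = 0.0931).

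Eif2ak2, the kinase PKR, went from -0.081, -0.14 and -0.029 (mean -0.083 ± 0.056, n = 3) to 0.46, 0.73, 1.01 and 0.84 (mean 0.76 ± 0.23, n = 4), a rise of 0.84 (SE 0.16, limma adjusted p = 0.00845). Adar, which edits adenosine in double-stranded RNA, did not pass (0.60, adjusted p = 0.155). Of the antiviral enzymes and membrane restriction factors only Rsad2, 1 of 6, rose. It went from 0.24, 0.21 and 0.22 (mean 0.22 ± 0.014, n = 3) to 1.22, 2.28, 1.95 and 1.51 (mean 1.74 ± 0.47, n = 4), a rise of 1.52 (SE 0.25, limma adjusted p = 0.00178). Cmpk2, a nucleotide kinase whose start lies near that of Rsad2 on chromosome 12, had a change of 0.71 that did not pass (adjusted p = 0.600). Bst2, or tetherin, which holds budding virus at the cell surface, had a change of 0.92 with an interval of -0.11 to 1.96. Its spread between mice of a group was the second largest of the set (SD 0.70). The exonuclease Isg20, Ifitm3 and Samd9l had changes of 0.36, 0.63 and 0.46 and did not pass.

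Of the ADP-ribosyl transferases and Dtx3l, 2 of 4 rose. Parp14 went from 1.99, 1.85 and 2.23 to 2.57, 3.00, 3.10 and 3.01, a rise of 0.89 (SE 0.20, limma adjusted p = 0.0329). Parp9 went from 0.77, 0.72 and 0.80 to 1.27, 1.80, 1.53 and 1.51, a rise of 0.76 (SE 0.15, limma adjusted p = 0.0109). Both groups of 4 treated mice lay above their controls. Dtx3l, a ubiquitin ligase that pairs with Parp9, had a change of 0.62 (adjusted p = 0.0903), and Parp12 one of 0.42 (adjusted p = 0.971). The nuclear body proteins Sp100 and Pml had the smallest changes of the set, 0.24 and 0.33, and neither passed.

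Of the other induced genes 6 of 7 rose. Ifi27l2a went from 2.34, 1.19 and 2.40 (mean 1.98 ± 0.68, n = 3) to 4.23, 5.33, 5.18 and 4.60 (mean 4.84 ± 0.51, n = 4), a rise of 2.86 (SE 0.61, 95% interval 1.60 to 4.12, limma adjusted p = 0.0211). It had the largest change of the set and also the largest spread between mice of a group (SD 0.85), so its interval is wide. Lgals3bp, a secreted glycoprotein that binds galectins, went from 1.30, 1.13 and 1.20 (mean 1.21 ± 0.086, n = 3) to 2.76, 3.29, 3.07 and 2.87 (mean 3.00 ± 0.23, n = 4). The 4 treated mice lay far above the controls. Its rise was 1.79 (SE 0.22, 3.45-fold, limma adjusted p = 6.68e-05), and it kept its call in 30 of 30 alternatives.

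Ifi44, a cytoplasmic protein of unsettled function, went from -1.19, -1.28 and -1.09 to -0.085, 0.61, 1.01 and 0.30, a rise of 1.65 (SE 0.27, limma adjusted p = 0.00178). Rtp4, a chaperone of membrane receptors, went from 0.57, 0.38 and 0.62 to 1.51, 2.21, 2.27 and 2.27, a rise of 1.54 (SE 0.27, limma adjusted p = 0.00297). In both, replicate 1 was the lowest treated mouse. Xaf1, a protein that binds the apoptosis inhibitor XIAP, went from 1.01, 0.95 and 1.04 to 1.78, 2.34, 2.14 and 2.51, a rise of 1.19 (SE 0.28, limma adjusted p = 0.0432). Trim30a, which dampens Toll-like receptor signalling, went from 1.42, 1.40 and 1.54 to 2.18, 2.87, 2.35 and 2.61, a rise of 1.05 (SE 0.20, limma adjusted p = 0.00904). Every treated mouse was above every control mouse for both. Ifi35, a cytoplasmic protein, had a change of 0.45 that did not pass (adjusted p = 0.969).

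The 2 arrays of 162 µg replicate 1 at day 28, the mouse of conflicting labels, gave different pictures. All 33 genes were higher on the second array than on the first, with a median difference of 0.94 (0.36 to 3.36). In the 6 other mice on 2 arrays this median was -0.29 to 0.23. Over all genes the median absolute difference between its arrays was 0.164, within the 0.153 to 0.241 of the other 6 pairs. Rsad2 was at 0.20 on the first array and 2.24 on the second, Isg15 at -1.21 and 2.15, and Ifi27l2a at 2.91 and 5.56. On the first array 16 of the 33 genes were at or below the highest control mouse, and all 33 were below the other 3 treated mice. On the second array all 33 were above every control mouse and 1 was below the other 3. Saa3, an acute phase gene, was at -0.31 and 1.27 on these arrays. It was at -3.71 to -3.55 in the day 28 controls, 0.10 to 2.00 in the 4 mice at 162 µg and day 28, and 3.86 to 5.55 at 162 µg and day 1.

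**Figure D5:**
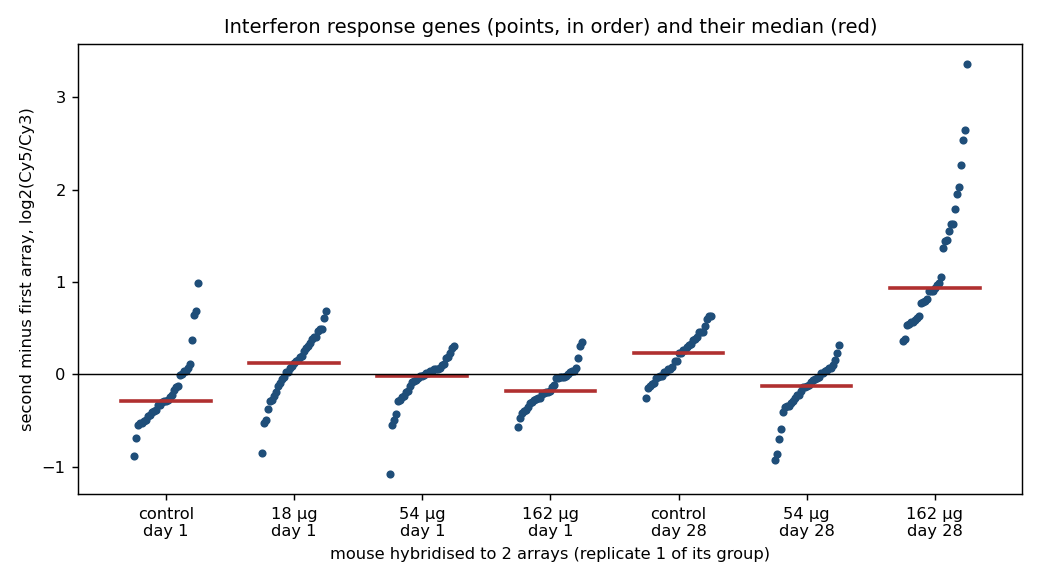
Second minus first array, in log2(Cy5/Cy3) on the y axis, for the 33 interferon response genes (points, sorted) in each of the 7 mice hybridised to 2 arrays, with the median in red. The medians lie at -0.29 to 0.23 in 6 mice, and at 0.94 in the mouse at 162 µg and day 28, where every point is above 0.

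The count of 18 at day 28 depends on which of these arrays is used. With the whole mouse left out all 18 genes kept their calls and the median change was 0.97. Without its first array all 18 kept their calls and 3 more were called. Without its second array 2 of the 18 were left, Lgals3bp and Zbp1, and the median was 0.78. These 2 alternatives, each leaving out 1 of its arrays, were added after the data were seen. The count was also 2 with only the first array of each mouse. With the mouse moved to day 1, as its titles say, 17 of the 18 kept their calls and 6 genes rose at day 1. Leaving out other mice, the count was 9 without control replicate 1, 8 without control replicate 2, 11 without 162 µg replicate 2 and 12 or more without any other. Within slides, the median change was 0.15 on slide 1, which held the first array of that mouse, and 1.15 and 0.87 on slides 3 and 4. It was 0.99 on slide 5, which held the second array of that mouse. Slides 1 and 5 set the same treated mouse against the same control mouse. With slide as a fixed block 18 genes rose, 17 of them the same. All 33 changes were above 0 on slides 3, 4 and 5 and 23 on slide 1. None of the arrays in these groups was a muscle array, and 23 genes rose with the muscle score as a covariate.

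At the lower doses of day 28 no gene passed. At 54 µg it was 0 of 33 (0% of all genes called higher), with 28 changes below 0 and a median of -0.13. At 18 µg it was 0 of 33 (0% of all genes), with 25 below 0 and a median of -0.089. The median over all genes was -0.020 at 54 µg and -0.023 at 18 µg. At an unadjusted p under 0.05, 0 of the 33 were lower or higher at 54 µg, and 2, Samd9l (-0.44) and Isg20 (-0.41), were lower at 18 µg. Muscle arrays were on 3 of 4 mice at 54 µg and 1 of 4 at 18 µg, and on 0 of 3 controls. Without muscle arrays the medians were 0.089 at 54 µg and -0.017 at 18 µg, and with the muscle score as a covariate 0.089 and 0.030, against -0.13 and -0.089 above. At 54 µg the mouse without one, replicate 4, had a median level of 0.82, against 0.24 to 0.66 in the other 3 and 0.63 to 0.70 in the controls. The means rose stepwise with dose in 5 of 33 genes, against 2.70% of all genes, and 162 µg had the highest mean in 33 of 33, against 30.0% of all genes. Whether the dose order differs between the days was not tested.

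The change at 162 µg was larger at day 28 than at day 1 in 31 of the 33 genes, but the difference between the days passed the test in 0 of 33 (0% of all genes called higher). The median difference was 0.34, and over all genes it was -0.0039. At an unadjusted p under 0.05, 6 genes had a larger change at day 28. They were Ifi27l2a (2.84, SE 0.83), Lgals3bp (1.20, SE 0.30), Ifi204 (1.18, SE 0.38), Ifi44 (0.99, SE 0.37), Rtp4 (0.97, SE 0.36) and Usp18 (0.85, SE 0.37). The lowest adjusted p was 0.274, for Lgals3bp. For Rsad2 the difference was 0.31 with an interval of -0.38 to 1.01, so a change of equal size on both days and one larger by 1 unit at day 28 both lie within it.

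The control groups of the 2 days differ in their muscle arrays, and the difference between them enters that test. For control mice of day 28 against day 1, 0 of 33 genes passed (0% of all genes called higher), with 29 changes above 0 and a median of 0.25. The largest were Cmpk2 (0.53), Bst2 (0.49) and Samd9l (0.44), of which Samd9l alone had an unadjusted p under 0.05. That of Ifi27l2a was -1.03 with an interval of -2.29 to 0.23. Each of the 4 day 1 controls had a muscle array and none of the 3 day 28 controls did, so day and muscle arrays are nearly confounded. The median was -0.027 with the muscle score as a covariate and 0.18 without muscle arrays, where 1 control mouse was left at day 1.

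Probes and spread were compared too. Of 13 genes with a second probe, the second probe had the same sign as the first in 13 at 162 µg on each day. At 18 µg and day 1 it did so in 9. In a fit over probes, 0 of the 13 second probes passed at 162 µg and day 1 and 2 at day 28 (Isg15, 1.56, and Lgals3bp, 1.38). The second probe of Zbp1 did not pass on either day, with changes of 0.56 and 0.92 (limma adjusted p = 0.324 and 0.177), smaller than the 1.20 and 1.59 of the first. That of Ifih1 had a change of 0.19 at day 28 (limma adjusted p = 1) against 0.87, and that of Xaf1 one of 0.63 (limma adjusted p = 0.0592) against 1.19. Within groups the median SD of the 33 genes was 0.30, against 0.20 for all genes tested. It was lowest for Parp9 (0.20), and after Ifi27l2a and Bst2 it was highest for Isg15 (0.58).

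Other parts of the pathway were read from lists of genes. Of 21 interferon genes, 16 were on the array and 7 passed the filter, and 0 of these 7 passed on either day at 162 µg. Ifnb1, the first interferon made by most cells, was well above background on 0 of 36 arrays. Of the 7 that passed the filter, Ifna14 and Ifnl3 were well above background on 36 arrays and Ifna12 on 35. Ifna1 was so on 30, Ifnab on 29, Ifna5 on 28 and Ifng on 26. Of 9 receptors and kinases 0 passed on either day, with medians of 0.12 and 0.078. Of 9 transcription factors, 1 rose at day 1 and 2 at day 28. Irf7, the factor that amplifies interferon production, rose by 1.15 (SE 0.29, limma adjusted p = 0.0437) and by 2.32 (SE 0.32, 0.000346). Stat2 rose at day 28, by 1.11 (limma adjusted p = 0.00178). Of 8 nucleic acid sensors and adaptors outside the set, 0 passed on either day. Of 7 oligoadenylate synthetase genes 1 rose at day 1 and 5 at day 28, with Oas1a up by 1.17 and 2.58. Of 15 GTPases that interferon gamma also induces, 0 rose at day 1 and 5 at day 28, among them Gbp3 by 1.23. Cxcl10, a chemokine for T cells and NK cells, rose by 2.30 and 2.24 (limma adjusted p = 0.000319 and 0.00178).

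Markers of immune cells were read beside these genes, since cells that enter the lung carry such transcripts. At 162 µg and day 28, 0 of 9 alveolar macrophage, 0 of 7 monocyte, 0 of 9 neutrophil (median 0.26, all 9 above 0), 0 of 9 plasmacytoid dendritic, 0 of 7 dendritic, 0 of 8 T cell and 0 of 8 B cell markers passed. Of 8 NK cell markers 0 passed and all 8 were lower, with a median of -0.40. Against the same controls all 8 were also lower at 54 µg (median -0.44) and at 18 µg (median -0.25), with 0 passing. In these controls all 8 were higher than in the day 1 controls (median 0.53), with 0 passing. At day 1, 1 of 9 neutrophil markers rose, Mmp8 (1.01, limma adjusted p = 0.016), with 7 of 9 above 0. Of 7 dendritic markers 1 rose, Itgax (0.68, limma adjusted p = 0.0267), with 6 of 7 above 0. Of 9 alveolar macrophage markers 2 fell and 3 were above 0, up to 0.51. None of the monocyte, plasmacytoid dendritic, NK, T or B cell markers passed at day 1. Fabp1 and Ear2 of the alveolar macrophage list fell by 1.77 and 0.98 (limma adjusted p = 0.0135 and 0.0153). The part of these cells in the level of the interferon genes was not tested.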

How the data were processed

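Lung RNA of 29 mice was read on 36 two-colour Agilent arrays. Per the file headers, the authors' scanner software (Agilent Feature Extraction 11.0.1.1) gave spot and background intensity in both dyes. The authors' deposited table holds log2 ratios whose normalization is not given in the sources used here. Its median on an array was -0.0388 to -0.0175, and its values correlated at r = 0.986 to 0.997 across probes (which are not independent) with the ratios computed here, and it served as an alternative.

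Computed here with R 4.3.3 and limma 3.58.1: normexp background correction of median signals (offset 50), loess within each array without control or outlier spots, the mean over spots of a probe, and the mean over arrays of a mouse (7 mice had 2). Files hold no gene symbol; probes were named through RefSeq accessions and the RefSeq gene list, which named 28026 of 55681 probes. A gene was tested when well above background in Cy5 on all arrays of at least 3 mice of a group. A single linear model in limma gave each of the 8 groups its mean over mice (21 residual and 2.89 prior degrees of freedom). Rises and falls in the text are two-sided tests with p under 0.05 after Benjamini-Hochberg adjustment over the 23264 genes. Nothing in the labels says that mice were housed or treated in separate batches. The p-values rest on a single spread per gene, pooled over the 8 groups of 3 or 4 mice, and not on the groups compared alone. For Ifit1 at day 1 the SD was 0.78 at 162 µg and 0.17 in controls, against 0.40 pooled within groups. The fit was also run on simulated data with 1 spread per gene in all groups, which cannot check an unequal spread between groups.

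Groups came from the dose and time labels. The number of mice, and signal over background, limit precision. Members and lists were chosen with earlier results of these data known. Full values are given for genes called in any comparison and for the 3 with the smallest change at day 1. The alternatives were other background corrections, normalizations, filters and probe rules, slide and mouse as blocks, muscle arrays, the mouse of conflicting labels, array weights, other controls and leaving out each mouse.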

Additional observations from a re-analysis of the deposited data

Results flagged for a closer look

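In the 5 groups of 4 mice, 165 sets (33 genes in each group) were examined, and in 10 of them 1 mouse lay far from the other 3 (a gap to the next mouse, over the whole range, above the 95% critical value of Dixon's test), where chance flags about 1 in 20. In the day 1 control group these were Ddx58 in replicate 2 (0.69, next 0.40), Parp9 in replicate 2 (0.92, next 0.55), Eif2ak2 in replicate 3 (-0.16, next -0.36) and Isg20 in replicate 3 (0.95, next 0.56), all as the highest mouse. At 162 µg and day 1, Herc6 (-0.42, next 0.077) and Ifi35 (0.63, next 1.37) were lowest in replicate 3, the mouse with a muscle array. At 18 µg and day 28, Zbp1 was lowest in replicate 4 (-0.20, next -0.042). At 162 µg and day 28, Ifit1 (0.80, next 1.51), Ifit3 (2.84, next 3.43) and Rtp4 (1.51, next 2.21) were lowest in replicate 1, the mouse of conflicting labels whose 2 arrays disagreed.

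At 18 µg every mouse was above the control mean for Sp100 at day 1 (change 0.25) and below it at day 28 (change -0.23). This difference was not tested, and muscle arrays differ between the 2 control groups.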

How the results depend on the processing

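All counts are of the 33 genes. The number of all genes called is not given beside them, so a shift is not by itself a result about the set. For 162 µg against control at day 1 (4 genes) the count was 2 with scanner processed signals, with median centring in place of loess, with the deposited table, with only the first array of each mouse, and without the second array of the mouse of conflicting labels. It was 8 with all arrays and mouse as a random block, 9 with slide as a fixed or as a random block, 1 when the fit held just the 2 groups, 25 with array quality weights, 1 with the day 28 control mice and 7 with those controls and no muscle arrays. At day 28 (18 genes) it was 2 with only the first array of each mouse and 2 without the second array of that mouse. For 162 µg against 18 µg (3 genes) it was 1 in such a fit, 6 without muscle arrays, 5 with the muscle score as covariate and 10 with array weights. For 162 µg against 54 µg (0) it was 1 without muscle arrays and 21 with array weights. Array weights also gave 1 for 54 µg at day 1, 4 for 54 µg at day 28 and 3 for the difference between the days. Leaving out each mouse in turn gave 2 to 21 at day 1, 8 to 18 at day 28 and 1 to 8 against 18 µg. The cause of these shifts was not tested, beyond fewer mice or arrays. Alternatives not named here stayed within 1.5 times the count. The 2 arrays of a mouse, treated as a block, had a consensus correlation of -0.035, and those of a slide 0.080. Normalizing average signals between arrays (Aquantile) leaves ratios as they are.

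Signs turned at 162 µg and day 1 for Samd9l (-0.038 with the muscle score, -0.30 with day 28 controls, -0.17 with those and no muscle arrays), Sp100 (-0.11 and -0.13 with the last 2 of these) and Bst2 (-0.064 with day 28 controls, -0.043 without 162 µg replicate 4, and up to 0.66 without other mice). They also turned for Ifi27l2a (-0.27, -0.14 and -0.10 without control replicates 1, 3 and 4, -0.25 and -0.091 without 162 µg replicates 3 and 4, and up to 0.59) and Pml (-0.021 without control replicate 3, and up to 0.26). None of these passed the test. No paired analysis was possible because the replicate numbers only name mice in order and pair none; the fits that block on slide are those given above.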
